A study of Gallus gallus with 18 samples.

Results

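Feeding any meal of black soldier fly larvae was compared with feeding none in the liver of broiler chickens. All 18 arrays of the series were used. The 12 arrays whose labels give a diet with meal (HI7.5 and HI15, 6 each) were set against the 6 whose labels give the diet without it (HI0). The measure was the mean of both meal diets minus the no-meal mean, gene by gene, in the deposited log2 signals.

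The liver makes most plasma proteins, turns dietary carbohydrate into fat, makes and exports cholesterol, and in birds is the main site of fat synthesis. Birds dispose of surplus amino acid nitrogen as uric acid, which the liver builds through the purine pathway. Insect larvae meal brings animal protein, fat rich in medium-chain fatty acids and chitin, while soybean products bring plant protein and plant sterols.

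The birds were male Cobb 500 broilers, a fast-growing meat type, that were 1 day old at the start and received their diet for 35 d. HI0, HI7.5 and HI15 held 0, 75 and 150 g of a commercial, partially defatted larvae meal of Hermetia illucens (HI) per kg of feed, or 0, 7.5 and 15%. The meal took the place of wheat, soybean oil and soybean extraction meal, and all diets were adjusted with synthetic amino acids, so adding meal and removing those ingredients cannot be told apart. The trial held 72 birds in cages of 4. The labels tie no array to a cage and do not state that the 18 arrays are 18 birds. P-values therefore reflect only the spread between these samples, which may be partly technical.

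Signals of 18226 probe sets ran from 1.00 to 15.08 on the log2 scale, and array medians lay between 7.23 and 7.31. Arrays correlated with each other at 0.966 to 0.990 over the probe sets, with a median of 0.983 within a diet and 0.982 between diets. The labelled tissue was borne out by bright hepatocyte products on every array. Albumin (ALB) lay between 14.41 and 14.54, apolipoprotein A-I (APOA1) between 14.03 and 14.25 and transthyretin (TTR) between 13.80 and 14.10. The lowest of the measured hepatocyte markers was CPS1, between 5.78 and 6.91, below the array medians. Within a diet the median standard deviation of a probe set was 0.208 in HI0, 0.221 in HI7.5 and 0.183 in HI15. HI0 replicates 4 and 5 and HI15 replicate 6 most often stood apart from their groups, for 5, 5 and 7 genes or gene lists. Over all arrays the number set apart was near the chance share given below. Leaving out 1 array moved 44 of the 134 named genes by over 1.5 times, and the value without that array is given beside those described. The table holds no detection values, so the probe sets with low signals below could not be checked against background, and the number of arrays limits the precision.

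No single gene passed the test for any meal against no meal. With limma and Benjamini-Hochberg adjustment, 0 of 18226 probe sets (0%) were past 0.05, and the smallest adjusted p was 0.999. At an unadjusted p under 0.05 there were 531 probe sets (2.91%), 188 higher with meal (1.03%) and 343 lower (1.88%). Were no probe set to differ, 911.3 would be expected, so the count lies below that number. Counted as genes, with the probe set of highest mean standing for its gene, 302 of 11528 genes (2.62%) had an unadjusted p under 0.05, 113 of them higher (0.98%) and 189 lower (1.64%). The genes named below are therefore described by their values and not called changed.

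Most differences were small. The difference lay within 0.1 on the log2 scale for 66.1% of probe sets, and it exceeded 1.5-fold for 25 probe sets (0.137%), 15 higher and 10 lower, and 2-fold for 3. For 95.3% of probe sets the 95% confidence interval stayed short of 1.5-fold in either direction, and for 99.5% it stayed short of 2-fold. Its median half-width was 0.222. The median standard error (SE) was 0.11, against 0.12 for one meal diet compared with HI0.

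**Figure D1:**
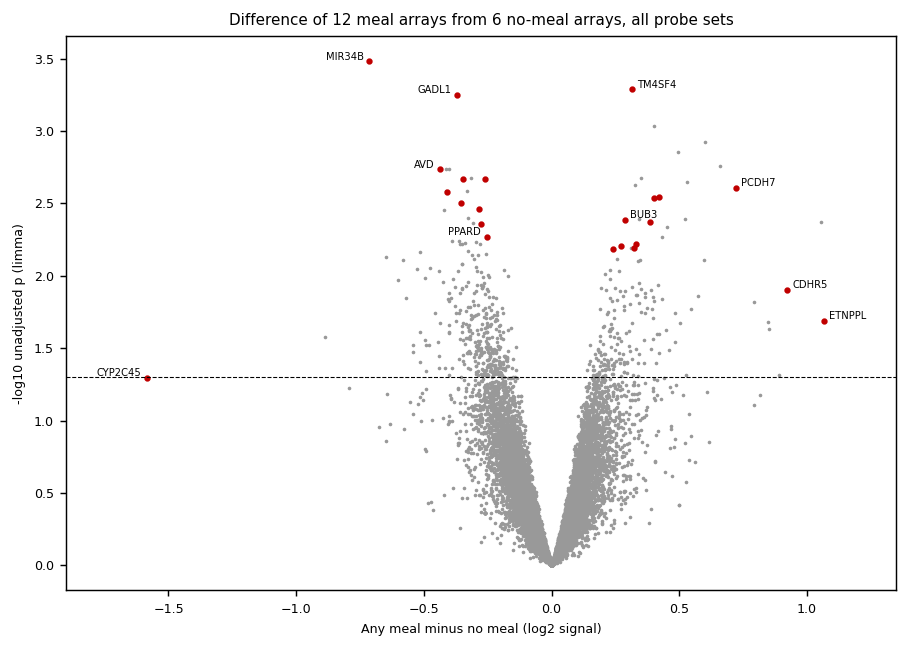
Each point is 1 of 18226 probe sets, with the difference of the 12 meal arrays from the 6 no-meal arrays (log2 signal) on the horizontal axis and -log10 of the unadjusted limma p on the vertical axis; the dashed line marks an unadjusted p of 0.05. Red points are the 10 genes in each direction with the smallest p plus CYP2C45, ETNPPL and CDHR5, some of them labelled; the largest differences, CYP2C45 at -1.59 and ETNPPL at 1.06, were not those with the smallest p.

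Among the 10 higher genes with the smallest p, the leading ones were a membrane protein, an adhesion molecule and the transferrin receptor. TM4SF4 (probe set 15550223), a membrane protein of the transmembrane 4 L6 family, lay between 11.40 and 11.80 without meal (median 11.68) and between 11.74 and 12.14 with meal (median 11.94). Its difference was 0.31 ± 0.08 (SE), or 1.24-fold, with an unadjusted p of 0.000516. Of the 12 meal arrays 10 lay above every no-meal array, and all 12 lay above the no-meal mean.

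PCDH7 (probe set 15511999), a protocadherin of cell adhesion, lay between 7.27 and 9.09 without meal (median 7.55) and between 7.93 and 9.02 with meal (median 8.51), a difference of 0.72 ± 0.21 (unadjusted p = 0.00248). Its other probe set was at 0.66. The groups overlapped through HI0 replicate 1, the array at 9.09. Without that array the difference was 0.98 and the limma adjusted p 0.036, the only call made in any setting.

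TFRC, the transferrin receptor that takes up iron, lay between 8.18 and 8.75 without meal (median 8.50) and between 8.54 and 9.52 with meal (median 8.79), a difference of 0.42 ± 0.12. All 12 meal arrays lay above the no-meal mean and 6 above every no-meal array. Its other probe set was at -0.12, so its probe sets disagreed in sign. FTH1, the ferritin heavy chain that stores iron, was at 0.10 ± 0.08, or 0.06 to 0.16 as arrays were left out, and the list of iron, copper, zinc and selenium genes had 11 of 18 members above 0 with a median of 0.01.

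The other higher genes differed by 0.24 to 0.40. KCNK7, of a potassium channel family, was at 0.40 ± 0.12, with 10 meal arrays above every no-meal array. GYG2, a glycogenin that primes glycogen, was at 0.39 ± 0.12, with a low signal between 4.73 and 5.88 over all arrays. PSAT1, an enzyme of serine synthesis, was at 0.32 ± 0.11. The spindle checkpoint gene BUB3 was at 0.29 ± 0.09 and the tight junction gene CLDN10 at 0.33 ± 0.11. The tyrosine kinase PTK2B was at 0.27 ± 0.09, and RIF1, which acts in DNA replication timing and break repair, was at 0.24 ± 0.08 with the largest p of the 10, 0.00655. For none of these did the meal arrays clear the no-meal arrays completely.

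Among the 10 lower genes a microRNA gene led. MIR34B (probe set 15475294), a microRNA of the miR-34 family, lay between 3.83 and 4.79 without meal (median 4.25) and between 2.94 and 4.06 with meal (median 3.69). Its difference was -0.71 ± 0.17 (SE), with the smallest unadjusted p of any gene, 0.00033. All 12 meal arrays lay below the no-meal mean and 8 below every no-meal array, but its signal was among those that could not be checked against background.

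GADL1 (probe set 15458335), a decarboxylase that makes beta-alanine in mice, lay between 5.20 and 5.67 without meal (median 5.48) and between 4.88 and 5.35 with meal (median 5.03), a difference of -0.37 ± 0.09 (unadjusted p = 0.000561). As for MIR34B, all 12 meal arrays lay below the no-meal mean and 8 below every no-meal array. AVD, the biotin-binding protein avidin, lay between 6.69 and 7.82 without meal (median 7.42) and between 6.71 and 7.22 with meal (median 6.94), a difference of -0.44 ± 0.12. No meal array lay below the lowest no-meal array for AVD, and without HI0 replicate 6, that lowest array, the difference was -0.58.

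The remaining lower genes differed by -0.41 to -0.25. PYGO1, a co-activator of Wnt signalling, was at -0.41 ± 0.12, and METTL22, a methyltransferase, at -0.26 ± 0.07 with its other probe set at -0.08. OTOG, known for a protein of the inner ear, was at -0.35 ± 0.10, and SLC38A11, of an amino acid transporter family, at -0.35 ± 0.11. Both had low signals that could not be checked against background, OTOG between 3.75 and 4.58 over all arrays and SLC38A11 between 3.50 and 4.71. CDCP1, a membrane substrate of Src kinases, was at -0.28 ± 0.09, and SHCBP1, which acts in cytokinesis, at -0.28 ± 0.09. PPARD, a nuclear receptor for fatty acids, was at -0.25 ± 0.08, with all 12 meal arrays below the no-meal mean and the largest p of the 10, 0.00541.

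**Figure D2:**
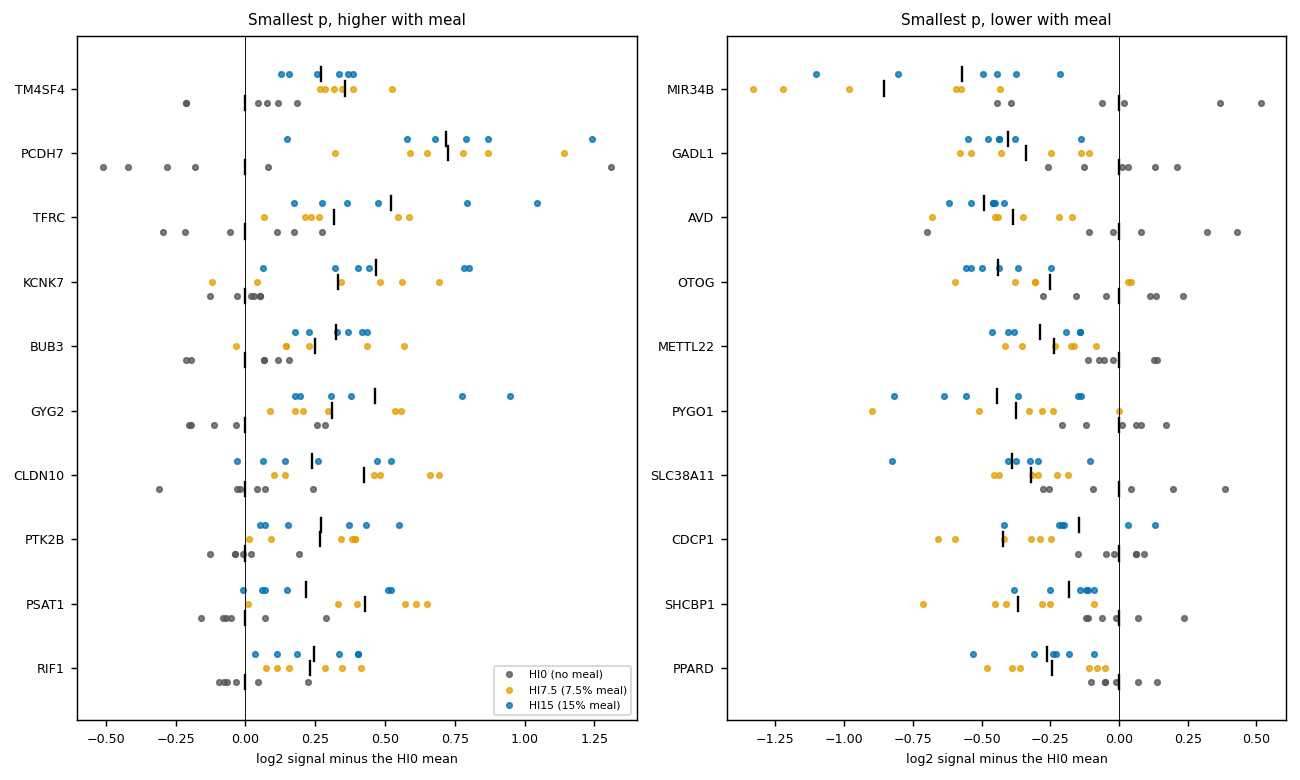
Each point is an array, as log2 signal minus the HI0 mean of the gene, for the 10 genes with the smallest p in each direction; within a gene HI15 is the top row of points, HI7.5 the middle and HI0 the bottom, and black ticks are diet means. For no gene do all 12 meal arrays clear the 6 no-meal arrays, and the no-meal array of PCDH7 at 9.09 lies far to the right of its group.

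Complete separation of the groups was not found. Of 18226 probe sets 0 (0%) had all 12 meal arrays on one side of all 6 no-meal arrays, and the nearest had 11 of 12. Above, these were MCTS1, a regulator of translation re-initiation, and an unnamed probe set. Below, they were MIRLET7F2, a microRNA of the let-7 family, METTL22 and NETO1, an accessory protein of glutamate receptors. MCTS1, MIRLET7F2 and NETO1 were chosen after their values were seen. MCTS1 lay between 8.12 and 8.29 without meal (median 8.21) and between 8.29 and 8.66 with meal (median 8.35), a difference of 0.21 ± 0.07. Its lowest meal array and highest no-meal array thus met at 8.29. MIRLET7F2 was at -0.40 ± 0.15 and NETO1 at -0.30 ± 0.12, each with 1 meal array above the highest no-meal array, at 6.36 and 5.13.

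The largest differences belonged to genes that varied widely between arrays. CYP2C45 (probe set 15526246), a cytochrome P450, lay between 11.66 and 12.78 without meal (median 12.30) and between 6.43 and 13.39 with meal (median 11.08). It was below every no-meal array on 9 of 12 meal arrays and above all of them on 1. The difference was -1.59 ± 0.76 (SE), or 3-fold lower, with an unadjusted p of 0.0509, and it ran from -1.83 to -1.18 as each array was left out. The lowest arrays were 1 of each meal diet, at 6.43 in HI7.5 and 6.84 in HI15.

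ETNPPL (probe set 15503468), which breaks down phosphoethanolamine, lay between 7.28 and 9.08 without meal (median 8.10) and between 7.24 and 10.30 with meal (median 9.68). Its difference was 1.06 ± 0.42, or 2.09-fold (unadjusted p = 0.0204), and 7 of 12 meal arrays lay above every no-meal array. CDHR5, a cadherin of brush borders, lay between 4.48 and 6.57 without meal (median 5.28) and between 5.17 and 7.55 with meal (median 6.23). It differed by 0.92 ± 0.34 with 3 meal arrays above every no-meal array. ETNPPL and CDHR5 were chosen once their values had been seen.

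With 1 probe set standing for each gene, 12 genes with a symbol were past 1.5-fold, 1 of them known only by a locus number. The calcium channel gene CACNA1D was at 0.85 ± 0.35, ANKRD22 at 0.82 ± 0.42, MAP3K7CL at 0.79 ± 0.30 and PAPLN, an extracellular matrix protein, at 0.60 ± 0.20, all chosen after their values were seen. DDX60, which takes part in antiviral RNA sensing, was at 0.79 ± 0.43, and STARD4, a sterol carrier, at -0.60 ± 0.21. The other probe set of DDX60 was at 0.52, and its 2 meal diets differed in mean but overlapped, as given below.

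**Figure D3:**
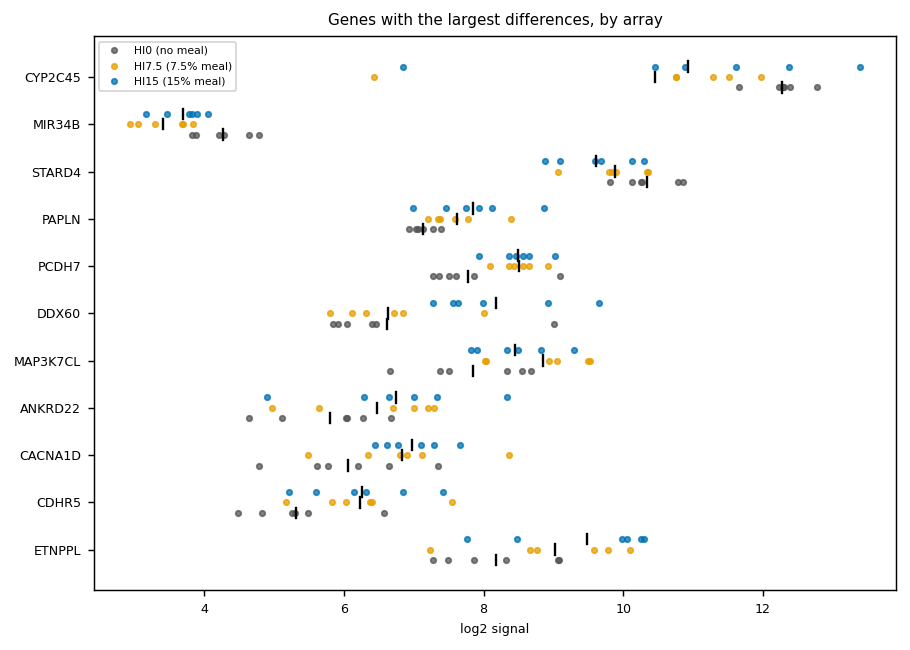
Log2 signal of each array for 11 genes whose difference exceeded 1.5-fold; within a gene HI15 is the top row of points, HI7.5 the middle and HI0 the bottom, and black ticks are diet means. CYP2C45 spans 6.43 to 13.39 among the meal arrays and 11.66 to 12.78 among the no-meal arrays, and DDX60 has 1 no-meal array at 9.01.

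In 42 gene lists, 30 for liver processes and 12 for cell types, 929 genes were measured and 0 passed the limma adjusted threshold. Over all 11528 genes 5927 (51.4%) lay above 0, with a median of 0.00. Among the 6546 genes whose probe set lay above the median level, 4266 (65.2%) lay above 0, with a median of 0.03. The remaining, dimmer genes thus lay above 0 less often than all genes. Lists below are described by counts without a test of the list. They are to be read beside these values, and for some lists the members above the median level are also counted. Leaving out 1 array moved the median of 40 of the 42 lists by over 1.5 times and turned its sign in 15.

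Sterol genes lay lower as a group. Of 16 measured genes of cholesterol synthesis and uptake 2 lay above 0 (12.5%), with a median of -0.18 that ran from -0.23 to -0.14 as each array was left out. At an unadjusted p under 0.05, beside 2.62% of all genes, 4 members were lower and 2 higher. STARD4, which carries sterols between membranes, lay between 9.81 and 10.85 without meal (median 10.26) and between 8.88 and 10.35 with meal (median 9.81). Its 12 meal arrays included 11 below the no-meal mean and 6 below every no-meal array.

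The other lower members were chosen after their values were seen. FDFT1, squalene synthase, was at -0.49 ± 0.23 with its other probe set at -0.40. INSIG1, which holds the sterol sensor in the endoplasmic reticulum, was at -0.29 ± 0.13, and NSDHL, a late enzyme of the pathway, at -0.29 ± 0.14. Each had 10 of 12 meal arrays below the no-meal mean. The 2 members above 0 were ACAT2, which forms acetoacetyl-CoA ahead of the pathway, at 0.34 ± 0.11, and INSIG2, a paralog of INSIG1, at 0.29 ± 0.10. INSIG2 was at 0.19 without HI0 replicate 4, where it lay at 9.88. The list mean per array, relative to HI0, lay between -0.25 and 0.19 in HI0, between -0.22 and 0.19 in HI7.5 and between -0.68 and 0.07 in HI15, so the diets overlapped.

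Genes of fat synthesis, fat oxidation, bile acids and lipoproteins had medians near that of all genes. Fatty acid and triglyceride synthesis had 10 of 18 members above 0 (median 0.01). HACD2, which acts in elongation of long-chain fatty acids, was the 1 with an unadjusted p under 0.05, beside 2.62% of all genes. HACD2 lay between 9.59 and 9.79 without meal (median 9.68) and between 9.60 and 10.11 with meal (median 9.93), a difference of 0.23 ± 0.08 with 10 meal arrays above every no-meal array. Fatty acid oxidation and ketogenesis had 22 of 34 above 0 (median 0.03). ACOT12, an acetyl-CoA hydrolase, was at -0.34 ± 0.14 there and at -0.21 without HI0 replicate 1, with no meal array below the lowest no-meal array. Its signal was low, between 3.91 and 5.20 over all arrays. CYP4A22, of a fatty acid hydroxylase family, was at 0.32 ± 0.17 with its other probe set at 0.16. The list median was -0.04 without HI0 replicate 5.

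Bile acid synthesis and transport had 9 of 18 above 0 (median 0.00), with the exporter ABCC2 at 0.13 ± 0.09 and the uptake carrier SLCO1B3 at -0.11 ± 0.09. Among lipoprotein genes 7 of 16 lay above 0 (median -0.01), and SCARB1, the receptor for high-density lipoprotein, was at 0.17 ± 0.08. Glycolysis, glycogen and glucose output had 12 of 27 above 0 (median -0.02). PPP1R3C, which directs a phosphatase to glycogen, was at -0.27 ± 0.20, and at -0.16 without HI7.5 replicate 4, where it lay at 10.80.

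Phospholipid and ceramide metabolism had 14 of 22 members above 0 (median 0.02). At an unadjusted p under 0.05, beside 2.62% of all genes, there were 3 members, all higher. CERS6, a ceramide synthase, lay between 4.84 and 6.23 without meal (median 5.85) and between 5.24 and 6.82 with meal (median 6.50), a difference of 0.57 ± 0.21 with 8 meal arrays above every no-meal array. It was at 0.40 without HI0 replicate 1. CDS1, which makes CDP-diacylglycerol, was at 0.26 ± 0.11 and ASAH1, acid ceramidase, at 0.21 ± 0.09.

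Lists of nitrogen metabolism had medians of 0.05 to 0.08 over all members, beside 0.00 for all genes and 0.03 for the brighter genes. In purine synthesis and uric acid formation 12 of 18 genes (66.7%) lay above 0, beside 51.4% of all genes. Of the 16 members above the median level 12 (75%) lay above 0, with a median of 0.10, beside 65.2% of the brighter genes. The list median of 0.08 was 0.01 without HI0 replicate 5. PAICS, an enzyme of the middle of the purine pathway, lay between 10.06 and 10.83 without meal (median 10.50) and between 10.43 and 11.56 with meal (median 10.91), a difference of 0.40 ± 0.15. PPAT, which commits the pathway, lay between 10.29 and 11.08 without meal (median 10.83) and between 10.69 and 11.59 with meal (median 11.15), a difference of 0.32 ± 0.13. Of the 12 meal arrays, 8 lay above every no-meal array for PAICS and 7 for PPAT.

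PNP, which splits purine nucleosides, was at -0.25 ± 0.12. Glutamine synthetase, GLUL, which supplies nitrogen to the pathway, was at 0.32 ± 0.16 with its other probe set at 0.17. ADSL, another purine enzyme, was at 0.21 ± 0.11, or 0.11 without HI0 replicate 5. GLUL and ADSL were picked with their values in view.

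Amino acid catabolism had 36 of 48 members above 0 (75%), with a median of 0.06. None had an unadjusted p under 0.05, beside 2.62% of all genes. The list median was 0.02 without HI0 replicate 5 and 0.10 without HI0 replicate 6. Of its 45 members above the median level 35 (77.8%) lay above 0, with a median of 0.08. AGXT2, a mitochondrial aminotransferase, was at 0.44 ± 0.21. HGD of tyrosine breakdown was at 0.18 ± 0.09, with all 12 meal arrays above the no-meal mean, and ornithine aminotransferase, OAT, at 0.23 ± 0.13.

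In the amino acid shortage response 14 of 17 members lay above 0 (82.4%, median 0.08). PSAT1 lay between 11.15 and 11.60 without meal (median 11.25) and between 11.30 and 11.96 with meal (median 11.68), with 7 meal arrays above every no-meal array. CHAC1, which degrades glutathione, was at 0.42 ± 0.26 and at 0.24 without HI7.5 replicate 4. Without HI7.5 replicate 5 the list median was 0.03. The amino acid transporter list had 19 of 28 above 0 (67.9%, median 0.05, and 0.01 without HI15 replicate 5). Of its 18 members above the median level 16 (88.9%) lay above 0, with a median of 0.08. SLC7A9 was at -0.17 ± 0.10. SLC7A6 was at 0.17 ± 0.11, and ran from 0.10 without HI0 replicate 5 to 0.26 without HI0 replicate 4.

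The median of oxidative phosphorylation lay above that of the brighter genes, 0.03, and the medians of translation and ribosomal genes did not. Of 54 genes of oxidative phosphorylation 51 (94.4%) lay above 0, with a median of 0.08. At an unadjusted p under 0.05, beside 2.62% of all genes, there was 1 member, NDUFA9 of complex I at 0.17 ± 0.08. NDUFA9 lay between 9.53 and 9.99 without meal (median 9.79) and between 9.77 and 10.18 with meal (median 9.91), with 2 meal arrays above every no-meal array. SDHB of complex II was at 0.15 ± 0.08 and NDUFB6 of complex I at 0.16 ± 0.10, or 0.09 without HI0 replicate 5. With only the 53 members above the median level 51 lay above 0, with the same median. The list median was 0.02 without HI0 replicate 5, whose list mean was -0.25, and 0.11 without HI15 replicate 6.

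The proteasome list had 25 of 30 members above 0 (83.3%, median 0.06), and its median was 0.02 without HI0 replicate 5. PSMD14, a subunit that removes ubiquitin, was at 0.12 ± 0.08. Translation factors and tRNA synthetases had 45 of 56 above 0 (80.4%, median 0.03, that of the brighter genes). EIF2S1 was at 0.13 ± 0.07, EEF2K, the kinase of elongation factor 2, at 0.21 ± 0.12, and EEF1A2, the lowest member, at -0.17 ± 0.09. Cytosolic ribosomal proteins had 33 of 52 above 0 (median 0.02), with RPL39L at 0.12 ± 0.07 and RPS28 at -0.14 ± 0.07.

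Xenobiotic enzymes held members at both ends of the list. Of 25 genes 19 (76%) lay above 0, with a median of 0.09 that was 0.05 without HI0 replicate 5. Of the 22 members above the median level 19 (86.4%) lay above 0, with a median of 0.10, beside 65.2% and 0.03 for all brighter genes. CYP1A1, induced through the aryl hydrocarbon receptor, lay between 7.72 and 8.49 without meal (median 8.33) and between 8.04 and 9.23 with meal (median 8.63), a difference of 0.41 ± 0.17. Its paralog CYP1A2 lay between 9.30 and 10.19 without meal (median 9.63) and between 9.23 and 10.72 with meal (median 9.96), a difference of 0.42 ± 0.18. CYP1A1 was above every no-meal array on 8 meal arrays and CYP1A2 on 4, while CYP2C45 lay at the other end of the list. These enzymes have close relatives in the genome, and signal shared between them was not tested.

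In the antioxidant list 20 of 26 genes (76.9%) lay above 0 (median 0.04, and 0.02 without HI0 replicate 5). SOD1, the cytosolic superoxide dismutase, was at -0.22 ± 0.11, and at -0.14 without HI0 replicate 6. GPX4, a selenium enzyme that reduces lipid peroxides, was at 0.18 ± 0.11 and at 0.27 without HI0 replicate 6.

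Lists of immune defence showed no shared direction. Interferon-stimulated genes had 13 of 26 members above 0 (median 0.00), and the median was 0.09 without HI0 replicate 4. GBP4L, a guanylate-binding protein, was at -0.24 ± 0.09, and at -0.14 without HI0 replicate 4, where it lay at 9.39. Acute phase and innate defence genes had 21 of 38 above 0 (median 0.01). Of the members above the median level, 17 of 23 acute phase genes (73.9%, median 0.06) and 9 of 18 interferon-stimulated genes (50%, median 0.00) lay above 0. For all brighter genes the share was 65.2% and the median 0.03. AVD was the only acute phase member at an unadjusted p under 0.05, beside 2.62% of all genes, and the Toll-like receptor TLR1B was at -0.23 ± 0.13. TLR1B was at -0.13 without HI0 replicate 4, and its other probe set was at -0.10. Among coagulation factors and plasma proteins 25 of 31 (80.6%) lay above 0, with a list median of 0.03, that of the brighter genes. Antithrombin, SERPINC1, was at 0.12 ± 0.08. SERPINF1, the lowest member, was at -0.16 ± 0.12, or -0.04 without HI0 replicate 4. Chitin and glycan hydrolases, listed because larvae meal carries chitin, had 7 of 11 above 0 (median 0.02). CHID1 was at 0.16 ± 0.13 (0.10 without HI7.5 replicate 3) and GNPDA2 at 0.07 ± 0.08. LYG2, the lowest member, was at -0.35 ± 0.36, and ran from -0.57 without HI0 replicate 4 to -0.17 without HI15 replicate 2.

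Cell cycle genes lay lower over all members, with a median closer to 0 among the few brighter ones. Of 66 genes 10 (15.2%) lay above 0, with a median of -0.12 that was -0.06 without HI0 replicate 4 and -0.17 without HI0 replicate 5. Of the 12 members above the median level 5 (41.7%) lay above 0, and their median was -0.02, beside 65.2% and 0.03 for all brighter genes. Most members were dimmer, and dimmer genes as a whole lay above 0 less often than the 51.4% of all genes. BIRC5, survivin of the mitotic spindle, lay between 6.64 and 6.91 without meal (median 6.79) and between 6.21 and 6.80 with meal (median 6.52), a difference of -0.25 ± 0.09 with 8 meal arrays below every no-meal array. PRC1, which bundles microtubules of the spindle midzone, was at -0.25 ± 0.12 with its other probe set at -0.31, and at -0.13 without HI0 replicate 4. TPX2 and AURKB, both of the mitotic spindle, were at -0.29 ± 0.14 and -0.33 ± 0.17 and were chosen after their values were seen. TPX2 was at -0.18 without HI0 replicate 4. BUB3 lay at the other end of the list. The list mean per array lay between -0.29 and 0.29 in HI0, between -0.38 and 0.12 in HI7.5 and between -0.27 and 0.18 in HI15.

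**Figure D4:**
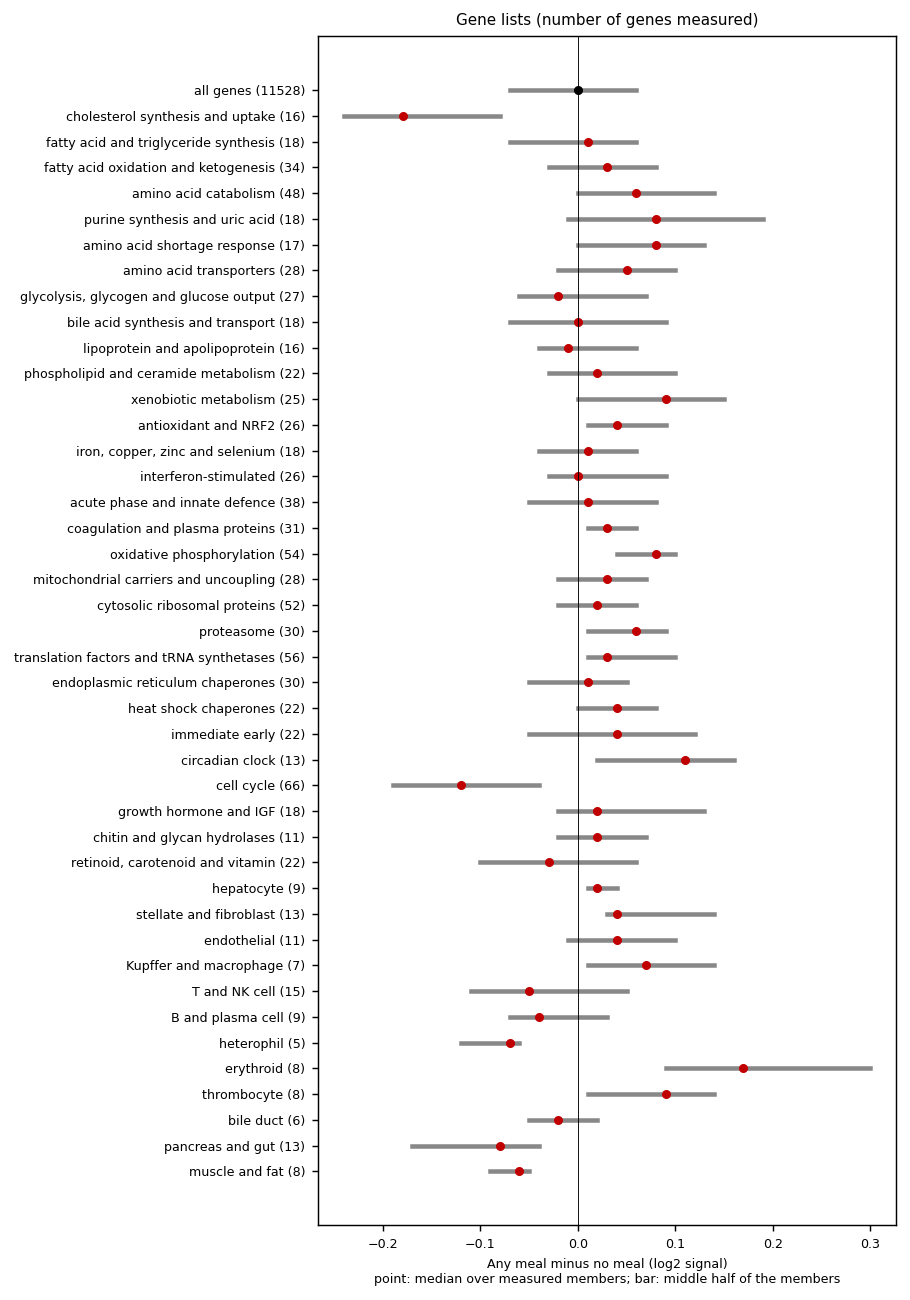
For each gene list, the point is the median over its measured members of the difference of meal from no-meal arrays (log2 signal) and the bar spans the middle 50% of the members, with the number of genes in brackets. Cholesterol genes (-0.18) and cell cycle genes (-0.12) have the lowest medians and erythroid genes (0.17) the highest, and the median over all genes is 0.00.

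Growth hormone and IGF genes had 11 of 18 above 0 (median 0.02). DIO2, which activates thyroid hormone, was at 0.53 ± 0.46. It ran from 0.23 without HI0 replicate 4 to 0.95 without HI0 replicate 5, so single arrays set its value. Circadian clock genes had 10 of 13 above 0 (76.9%, median 0.11), with the clock output factor HLF at 0.20 ± 0.10 and the nuclear receptor RORB at -0.26 ± 0.11, or -0.15 without HI0 replicate 1, where it lay at 5.83. Without HI7.5 replicate 1 the clock median was 0.05. Of the 9 clock genes above the median level 9 lay above 0, with a median of 0.14, beside 65.2% and 0.03 for all brighter genes.

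Heat shock chaperones had 16 of 22 above 0 (median 0.04), and chaperones of the endoplasmic reticulum 17 of 30 (median 0.01). Above the median level, 16 of 18 heat shock members (88.9%, median 0.06) and 17 of 29 endoplasmic reticulum members (58.6%, median 0.01) lay above 0. HSPA5, the main chaperone of that compartment, was at -0.16 ± 0.14, and at -0.04 without HI0 replicate 4. Immediate early genes had 14 of 22 above 0 (median 0.04), with IER5 at -0.17 ± 0.09 and BTG1 at 0.12 ± 0.09. Retinoid, carotenoid and vitamin genes had 9 of 22 above 0 (median -0.03). Mitochondrial carriers had 18 of 28 above 0 (median 0.03), with SLC25A24, a calcium-regulated carrier of ATP, at 0.22 ± 0.11. UCP3, the lowest member, was at -0.16 ± 0.12, or -0.26 without HI0 replicate 4. SLC25A28 was at -0.10 ± 0.08, and ran from -0.15 without HI0 replicate 5 to -0.06 without HI0 replicate 1.

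Markers of cell types differed by amounts like those of the process lists. In whole tissue, a different number of cells of a type and a different RNA content per cell cannot be told apart. Hepatocyte markers had 7 of 9 above 0 with a median of 0.02. Erythroid genes, read from the nucleated red cells of birds, had 7 of 8 above 0 with the highest median of any list, 0.17. HBAD, an alpha globin, lay between 9.26 and 10.10 without meal (median 9.50) and between 8.77 and 11.70 with meal (median 10.14), a difference of 0.54 ± 0.30. The related globin HBA1 was at 0.48 ± 0.31 and the red cell anion exchanger SLC4A1 at 0.24 ± 0.16 (0.15 without HI15 replicate 6), and each was picked with its values in view. The erythroid mean per array lay between -0.27 and 0.28 in HI0, between -0.18 and 0.50 in HI7.5 and between -0.30 and 0.82 in HI15, and its part in the other results was not tested.

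Pancreas and gut markers, genes of neighbouring organs, had 1 of 13 above 0 with a median of -0.08. The median ran from -0.15 without HI0 replicate 2 to -0.05 without HI0 replicate 5, and no member was above the median level. Dimmer genes as a whole lay above 0 less often than the 51.4% of all genes, so that share is not a like reference for this list. FABP2, the intestinal fatty acid-binding protein, was at -0.36 ± 0.13. The trypsin gene PRSS3, chosen after its values were seen, was at -0.25 ± 0.11. Its other probe sets were at -0.23, -0.10 and 0.03. FABP2 lay between 3.52 and 4.60 over all arrays and PRSS3 between 5.38 and 6.15. The list mean per array lay between -0.14 and 0.14 in HI0, between -0.35 and 0.04 in HI7.5 and between -0.22 and 0.01 in HI15.

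Kupffer cell and macrophage markers had 5 of 7 above 0, with a median of 0.07 that was 0.00 without HI0 replicate 1 and 0.18 without HI0 replicate 4. The mannose receptor MRC1 was at 0.36 ± 0.14, or 0.25 without HI0 replicate 1. T and NK cell markers had 5 of 15 above 0 (median -0.05, and 0.03 without HI0 replicate 4). LCK, the kinase of T cell receptor signalling, was at -0.25 ± 0.11 with all 12 meal arrays below the no-meal mean. It was the lowest member of that list, whose highest member was at 0.29 ± 0.18. B and plasma cell markers had 4 of 9 above 0 (median -0.04), heterophil markers 0 of 5 (median -0.07) and thrombocyte markers 6 of 8 (median 0.09). Stellate cell and fibroblast markers had 11 of 13 above 0 (median 0.04), endothelial markers 8 of 11 (median 0.04), bile duct markers 2 of 6 (median -0.02) and muscle and fat markers 1 of 8 (median -0.06). Above the median level were 4 T and NK cell, 3 B and plasma cell, 3 heterophil, 2 bile duct, 1 thrombocyte and 1 muscle and fat marker. Except for the heterophil markers, most members of these lists were dimmer. Dimmer genes as a whole lay above 0 less often than the 51.4% of all genes, so that share is not a like reference for those lists.

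**Figure D5:**
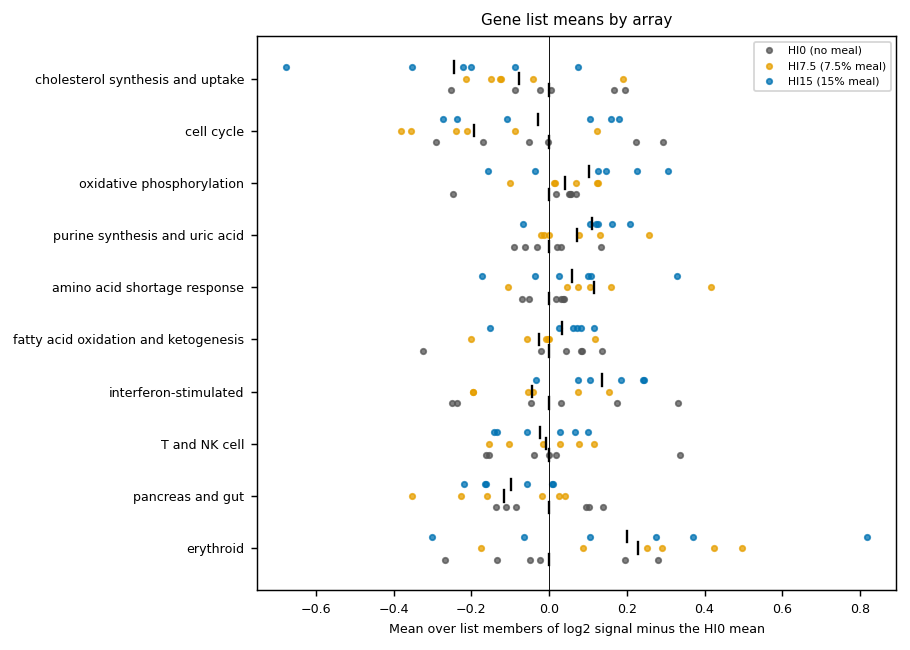
Each point is an array's mean over the members of a list, as log2 signal minus the HI0 mean; within a list HI15 is the top row of points, HI7.5 the middle and HI0 the bottom, and black ticks are diet means. The diets overlap in every list shown, HI0 replicate 5 lies at -0.25 for oxidative phosphorylation and HI0 replicate 4 at 0.34 for T and NK cells.

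Pooling HI7.5 and HI15 assumes nothing about their likeness, and the 2 meal diets were compared with each other in the same fit. That difference holds no HI0 array, but its SE and p rest on the spread within all 3 diets, HI0 included. With limma, 0 of 18226 probe sets differed between HI15 and HI7.5 after Benjamini-Hochberg adjustment (0%), and 576 (3.16%) had an unadjusted p under 0.05, or 295 genes (2.56%). Of 115 genes named by rule 5 did. One was CDCP1, the only one of the 20 with the smallest p in the pooled comparison, at 0.27 ± 0.10 (SE) for HI15 minus HI7.5. The others were DDX60 at 1.54 ± 0.49, GPX4 at 0.28 ± 0.13, RPS28 at 0.19 ± 0.08 and SERPINA10, an inhibitor of coagulation, at -0.32 ± 0.14. The pooled difference of SERPINA10 was 0.16, or 0.08 without HI0 replicate 1.

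DDX60 lay between 5.84 and 9.01 in HI0 (median 6.22), between 5.80 and 8.0 in HI7.5 (median 6.52) and between 7.28 and 9.65 in HI15 (median 7.81). Its pooled difference of 0.79 thus joined a diet at 0.02 from HI0 and a diet at 1.56, and it was 1.27 without HI0 replicate 1. The limma p of HI15 against HI7.5 for DDX60 was 0.00517 before Benjamini-Hochberg adjustment and 0.999 after it.

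For the genes with the smallest p, the differences of HI7.5 and of HI15 from HI0 are given side by side, since they share the HI0 arrays and were not compared as independent results. TM4SF4 was at 0.35 in HI7.5 and 0.27 in HI15, and PCDH7 at 0.72 in each. TFRC was at 0.32 and 0.52, PSAT1 at 0.43 and 0.22, and KCNK7 at 0.33 and 0.47. Among the lower genes MIR34B was at -0.86 and -0.57, GADL1 at -0.34 and -0.40, AVD at -0.39 and -0.49 and CDCP1 at -0.42 and -0.15. CERS6 was at 0.34 in HI7.5 and 0.80 in HI15, STARD4 at -0.47 and -0.73 and CYP2C45 at -1.82 and -1.35. CYP1A1 was at 0.24 in HI7.5 and 0.58 in HI15, CYP1A2 at 0.22 and 0.62, GLUL at 0.15 and 0.49 and INSIG1 at -0.15 and -0.43. Cholesterol genes had a median of -0.13 in HI7.5 and -0.25 in HI15, oxidative phosphorylation 0.04 and 0.10, and cell cycle genes -0.20 and -0.04.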

How the data were processed

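Biotin-labelled target from liver RNA was measured on 18 Affymetrix arrays, 1 colour each. The authors deposited log2 signals, 1 per probe set and array. The submitters' processing notes name RMA and Affymetrix Expression Console 1.4. RMA removes background, makes the arrays' distributions alike and combines the probes of a set. The chip's annotation build is not given in the sources used here. No probe set was left out.

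Groups came from the labels. A linear model with a mean for each diet was fitted to all 18 arrays with limma 3.58.1 in R 4.3.3, followed by eBayes with its default prior, with 15 residual degrees of freedom and 5.12 prior ones. P-values are two-sided and adjusted by Benjamini-Hochberg over 18226 probe sets, with calls at 0.05. Tables were made in Python 3.11.15 with pandas 2.3.3. Of the probe sets 12300 had 1 gene symbol, and 5926 had several or none here. By gene identifier 11727 were found in RefSeq's gene table for assembly GRCg7b. The probe set with the highest mean stood for its gene, and 651 of 11528 genes had more than 1. The lists held 1384 symbols, of which 943 were measured.

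The comparison, gene lists and tests were chosen with earlier results of these data known. Genes were named by rule: the 10 smallest p in each direction, the 3 smallest of each process list and the 1 smallest of each cell type list. The 10 were taken from genes with 1 symbol, each by its probe set of highest mean, and genes known only by a locus number were passed over. Of the 20 probe sets with the smallest p, 12 had 1 gene symbol. The other 19 genes are marked in the text.

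On simulated data with 200 changed probe sets in each of 10 runs over 18226 probe sets, the fit of any meal against no meal found 43.8% of planted 1.3-fold changes, 74.4% at 1.5-fold, 97.4% at 2-fold and 100% at 3-fold. Of its calls 5.73% were false. Sizes were mixed, so small changes alone would be recovered less often. The simulated probe sets varied independently, without shifts shared by many genes of an array, so these shares may not hold for the measured arrays. Alternatives were a 2-group fit, quantile normalization, subtraction of array medians, a filter to the brighter probe sets (above the median level), a robust prior with a variance trend, array weights, the last title number as a covariate, a replicate block, the mean over a gene's probe sets, and omission of each array.

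The titles' last numbers fall in 6 runs of 6, each with 1 array of every diet, but what they stand for is not stated. The other running numbers of the titles follow the diets, HI0 first, then HI7.5, then HI15. An order that they might mark cannot be told apart from diet.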

Additional observations from a re-analysis of the deposited data

Results flagged for a closer look

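In each diet of 6 arrays, the highest or lowest array was compared with the rest by Dixon's ratio at its 95% limit. Of 402 groups of named genes 21 held an array set apart, and of 126 groups of list means 9 did. Chance gives about 1 in 20 groups, so the number of such arrays is near that share. HI15 replicate 6 accounts for 7 of them, and HI0 replicates 4 and 5 for 5 each.

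Among no-meal arrays, HI0 replicate 1 was high for PCDH7 at 9.09 and for DDX60 at 9.01, and HI0 replicate 3 was high for ACAT2 at 10.11. HI0 replicate 4 was low for INSIG2 at 9.88 and for LYG2 at 10.67, and high for GBP4L at 9.39 and for SERPINF1 at 11.08. It was also high for the mean of T and NK cell markers at 0.34. HI0 replicate 5 was low for NDUFB6 at 7.92 and for the list means of fatty acid oxidation at -0.32, oxidative phosphorylation at -0.25, the proteasome at -0.17 and translation at -0.07.

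Among HI7.5 arrays, replicate 3 stood apart for HGD at 11.11, SERPINA10 at 11.95 and CPS1 at 6.91, and replicate 4 for CYP2C45 at 6.43. Replicate 2 was set apart for the immediate early mean at 0.01.

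Among HI15 arrays, replicate 6 stood apart for SLC7A5 at 8.49, ABCC3 at 6.88, STAB1 at 10.33, MYH1B at 4.13 and SLC4A1 at 8.08. It was also apart for the means of fatty acid oxidation at -0.15 and immediate early genes at 0.35. Replicate 5 was apart for NDUFA9 at 10.16, replicate 3 for RPL39L at 12.27, and replicate 4 for SLC25A28 at 9.0 and NETO1 at 5.13. Replicate 1 was apart for the acute phase mean at 0.12.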

How the results depend on the processing

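The count of 0 adjusted calls held in every alternative fit, and leaving out each array gave 0 to 1, the 1 being PCDH7 without HI0 replicate 1. The 531 probe sets at an unadjusted p under 0.05 became 533 in a 2-group fit, 529 after subtracting array medians, 562 after quantile normalization, 473 with a variance trend and robust prior, 718 with array weights, 505 with the title number as covariate and 187 with only probe sets above the median level, where fewer probe sets are tested. Leaving out each array gave 377 to 944, the highest without HI0 replicate 6. After quantile normalization 1 probe set had no overlap between the groups, that of MCTS1, which was at 0.21 in the deposited signals. The 5 named genes that differed between HI15 and HI7.5 at an unadjusted p under 0.05 became 3 to 9 as arrays were left out. With only probe sets above the median level 3 were counted, but named genes below that level drop out of this count. ECHS1, at 0.17, was at -0.01 with the mean over its probe sets, the other being at -0.20. It ran from 0.07 without HI0 replicate 5 to 0.26 without HI0 replicate 4. With only probe sets above the median level the median of all genes was 0.03 against 0.00, that of 2 erythroid genes 0.51, of 12 cell cycle genes -0.02 and of 11 retinoid, carotenoid and vitamin genes 0.05. Causes were not tested.

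With the title runs as a replicate block, the adjusted calls stayed at 0, the unadjusted count was 432 and the HI15 against HI7.5 count 3. Deviations from diet means correlated at -0.34 to 0.19 over the 18 pairs of a run (median -0.08), and 5 pairs exceeded 0.1. Pairs from other runs and other diets had a median of 0.03, and 1 of 18 arrays correlated best with its own run. These values show no likeness within a run, but they cannot tell whether the numbers mark a block or cage.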
